A study of Cervus nippon with 40 samples.

Results

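Skeletal muscle is represented by 4 of the 40 small RNA libraries of this sika deer series, 1 library from each of 4 life stages. The other 36 libraries come from 9 organs (adrenal, antler, brain, heart, kidney, liver, lung, spleen and testes) at the same stages. The deer were 1 year old in the juvenile group, 3 years in adolescence, 5 years in the adult group and 10 years in the aged group, and each library holds RNA pooled from 3 male deer of the Shuangyang breed, so that 12 deer gave all samples and the 10 organs of a stage share the same 3 animals. No group received a treatment. Because a stage has 1 muscle library, the stage and the 3 deer pooled for it cannot be told apart. The muscle libraries were chosen by their organ label, and within them the names of known bovine miRNAs were kept, which gives 336 names in the whole series, of which 171 had a read in at least 1 muscle library, 105 in all 4 and 110 at least 10 reads over the 4.

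MicroRNAs (miRNAs) are short RNAs that guide Argonaute proteins to messenger RNAs and lower their translation or stability. Striated muscle carries its own set, often called myomiRs. miR-1 and miR-133a are cut from shared transcripts, as are miR-206 and miR-133b, and miR-208a, miR-208b and miR-499 lie in introns of myosin heavy chain genes. In cultured muscle cells miR-1 and miR-206 favour differentiation, and miR-133 is known for its part in myoblast growth. miR-378 lies in an intron of the gene for PGC-1β, a coactivator of oxidative metabolism, and miR-486 lies in ANK1 and is shared by muscle and red blood cells.

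miR-1 took nearly the whole of each muscle library. It held 91.96% of the known miRNA reads in the juvenile library (95% Wilson interval 91.94 to 91.98), 91.79% in adolescence (91.76 to 91.81), 92.85% in the adult (92.83 to 92.87) and 91.10% in the aged library (91.08 to 91.12). These intervals cover counting error only, since reads copied by PCR are not independent molecules. The 4 muscle values spanned less than 2 percentage points, whereas the heart, the other striated organ, had 57.8%, 81.5%, 31.7% and 15.1% at the same stages. The highest share among the remaining 32 libraries was 5.22%, in the aged spleen. The muscle libraries therefore do not overlap with those of any other organ in their miR-1 share.

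**Figure D1:**
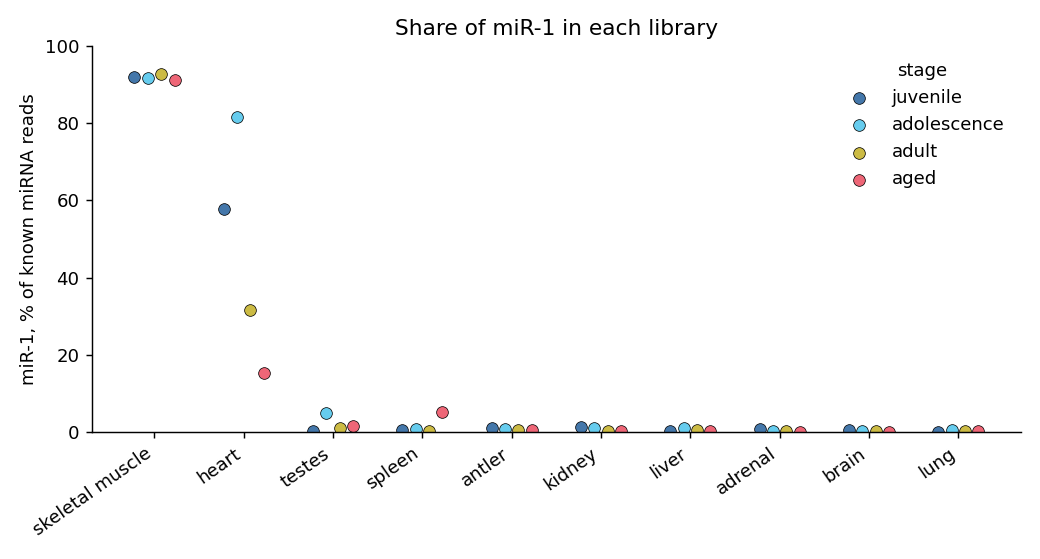
Each point is 1 library and gives miR-1 as a percent of its known miRNA reads, by organ (horizontal axis) and stage (colour). The 4 muscle points lie between 91.1% and 92.9%, the heart points spread from 15.1% to 81.5%, and the other 8 organs stay at or below 5.22%.

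With miR-1 set aside, 623924 reads remained in the juvenile, 447810 in the adolescent, 464387 in the adult and 536152 in the aged muscle library. This is near the 658685 reads that the median library of the other organs held after the same step (range 41135 to 1154635). All levels below are RPM without miR-1, that is, reads in 1000000 known miRNA reads other than miR-1. On this scale 1 read in muscle is worth between 1.60 and 2.23 RPM.

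miR-206, the skeletal muscle relative of miR-1, was detected at a very low level. It had 15, 10, 6 and 6 reads in the juvenile, adolescent, adult and aged muscle libraries, which are levels of 24, 22.3, 12.9 and 11.2. No read of it was found among 26682960 known miRNA reads of the other 36 libraries. Taking 3 reads over all those libraries as the limit that a count of 0 allows, miR-206 was at least 133.3-fold higher in muscle on the scale without miR-1, and at least 12.8-fold higher when miR-1 is left in the totals. There were 639483 reads of miR-1 for each read of miR-206 in muscle. Because miR-206 did not reach 10 reads in 4 libraries, it was not tested. miR-206 was 1 of 4 names read in muscle and nowhere else, and the other 3 (miR-29b, miR-381 and miR-4657) had 1 read each.

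After miR-1 was removed, 2 miRNA families made up most of what was left. The miR-133 and miR-378 families together held 62.8% of the remaining reads in juvenile, 63.7% in adolescent, 64.9% in adult and 68.6% in aged muscle. In the heart the same families held 34.8% to 56.6%, and in the other 8 organs at most 12.1%. miR-378 led with a mean of 36.6% of the muscle reads and miR-133a followed with 24.4%. Next came miR-26a (8.93%) and its near-identical entry miR-26c, miR-378c (2.39%), miR-30c (1.93%), miR-199a-3p (1.86%) with its double miR-3604, miR-486 (1.68%) and let-7b (1.56%). Altogether 7 pairs of names had almost equal reads in every library, and the second names of these pairs held 13.3% of the muscle reads without miR-1, so that such a pair counts 1 signal under 2 names.

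miR-133a was found at 110775, 290418, 269945 and 305956 from the juvenile to the aged muscle. The juvenile library was the lowest, and the other 3 lay close together. In the heart it ranged from 158024 to 297835, which overlaps with muscle, whereas the highest level in any other organ was 7269, in the testes. miR-133b, the partner of miR-206, was found at 4573, 10527, 10616 and 8820, above all 36 other libraries, of which the heart came closest with 2085 to 3929. miR-133c was found at 1963, 3939, 5246 and 10281. The heart values of miR-133c, 1529 to 7788, lie within that span, and no other library was above 48.7. The members of this family differ by few bases, so the division of reads between their names is uncertain.

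The 4 members of the miR-378 family were all high. miR-378 itself was found at 482023, 311139, 340864 and 331482, with the juvenile library highest. The heart overlapped with it at 174317 to 353040, and the spleen came next with 31222 to 111034. miR-378c was found at 27181, 19888, 21510 and 27046, which is above all other libraries (highest 7514, in the heart). miR-378d was also above all others, with 1091, 708, 713 and 765 against a highest value of 365. miR-378b was found at 380, 878, 547 and 1278 and overlapped with the heart at 555 to 1206.

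Of the remaining myomiRs, miR-486 was abundant and the others had few or no reads. miR-208b, which lies in the slow myosin gene MYH7, had 5, 10, 5 and 20 reads in muscle, and 340 reads in the 4 heart libraries. No other organ had any, and all heart levels (39.1 to 422) were above the muscle levels (8.01 to 37.3). miR-208a, from the cardiac myosin gene MYH6, and miR-499 had no read in muscle, which allows levels up to 1.45 over the 4 libraries, and 34 and 5 reads in the heart. miR-486 was found at 18549, 19582, 16889 and 12172 in muscle. Its mean was higher only in the heart, at 15875 to 57394, and next in the liver, at 4268 to 13771, which overlaps with the lowest muscle library.

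The first comparison asked how the muscle profile differs from that of the other 9 organs. Of 125 miRNAs with at least 10 reads in 4 or more libraries, 12 were higher in muscle (9.6% of those tested) and 48 lower (38.4%), at an adjusted p below 0.01 and a difference beyond 1 on the log2 scale. None of the 125 passed the filter through the muscle libraries alone. The median difference over all 125 was -1.13, so a typical miRNA lay below the other organs on this scale, and each difference can also be read relative to that median. The split depends on how libraries are scaled. There were 6 higher and 103 lower when miR-1 was kept in the totals, 21 and 24 with TMM factors, 23 and 16 with DESeq2 size factors, and 27 and 17 when the miR-133 and miR-378 families were also left out of the totals. Leaving out the adult or the aged stage left 29 lower. Under all 5 scalings 6 miRNAs stayed higher and 16 stayed lower. DESeq2 applied to the reads called 26 higher and 16 lower.

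All 5 tested myomiRs were higher in muscle, and so were all 4 tested members of the miR-378 family. Of all tested names 9.6% were higher. On the log2 scale miR-133c was higher by 8.0 ± 0.55 (SE, adjusted p = 5.06e-14), miR-133b by 7.92 ± 0.52 and miR-133a by 7.37 ± 0.55. These 3 held under all 5 scalings. For miR-378c the difference was 4.63 ± 0.30 (adjusted p = 1.48e-14), for miR-378 4.44 ± 0.27, for miR-378b 4.13 ± 0.56 and for miR-378d 4.05 ± 0.60. miR-378c held under all scalings, while miR-378, miR-378b and miR-378d lost the call with miR-1 in the totals (0.94, 0.66 and 0.57). miR-486 was higher by 2.10 ± 0.33 (adjusted p = 2.02e-06), and its direction reversed to -1.40 with miR-1 in the totals. miR-208b was called at 3.43 ± 0.31 although it was read only in muscle and heart, so that this value depends on the constant added before taking logs. DESeq2 on the reads gave it an adjusted p of 0.333. The median difference was 7.37 over the tested myomiRs and 4.29 over the miR-378 family, beside -1.13 over all tested.

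**Figure D2:**
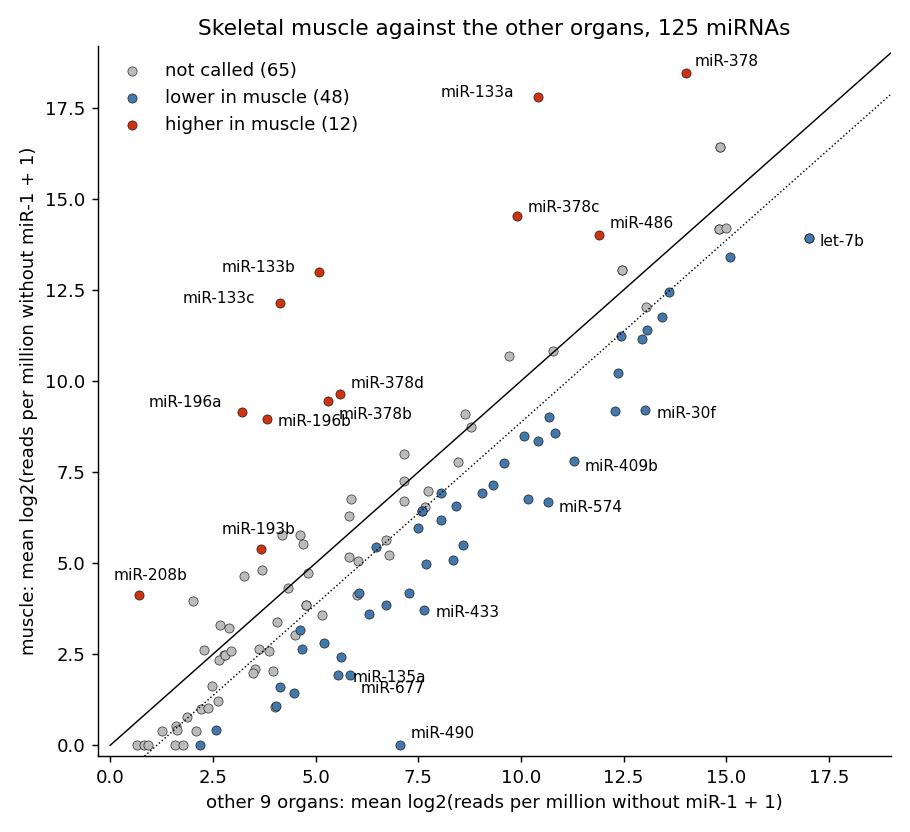
Each point is 1 of 125 miRNAs, with the mean log2 level in the 36 libraries of the other organs (horizontal) and in the 4 muscle libraries (vertical), both in RPM without miR-1. The solid line marks equal levels and the dotted line the median difference of -1.13. The 12 miRNAs higher in muscle (red) lie above the lines, and the 48 lower ones (blue) lie below them.

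Outside these families, 3 more miRNAs were higher in muscle. miR-196a and miR-196b, which lie in the HOX gene clusters that pattern the body axis, were found at 769, 132, 674 and 1477 and at 468, 259, 515 and 1009. Muscle was not the highest organ for either. The kidney ranged from 726 to 1596 for miR-196a, overlapping with muscle, and from 2309 to 5284 for miR-196b, above all muscle libraries. The testes came next, with 72.9 to 154 and 15.7 to 358, and the heart had at most 4.22 and 13.0. In the adolescent, adult and aged testes libraries 1 read is worth 15.7, 10.4 and 24.3 RPM, so low levels there rest on few reads. Against the other 9 organs together the differences were 5.93 ± 0.55 (adjusted p = 7.13e-11) for miR-196a and 5.16 ± 0.55 for miR-196b, and both held under all 5 scalings. miR-10a and miR-10b, from the same gene clusters, had 0 and 1 read in muscle and 5 and 57 reads elsewhere, so they were not tested.

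miR-193b was found at 40.1, 49.1, 43.1 and 33.6, a narrow range that rests on 18 to 25 reads a library. Liver, kidney and adrenal had higher or overlapping levels (52.2 to 155, 37.4 to 77.2 and 27.3 to 58.9). Its difference of 1.72 ± 0.50 (adjusted p = 0.00415) fell below the limits without any one of the muscle libraries of the first 3 stages, without brain or lung, and with 10 as the added constant (0.94). With miR-1 in the totals it reversed to -1.51.

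**Figure D3:**
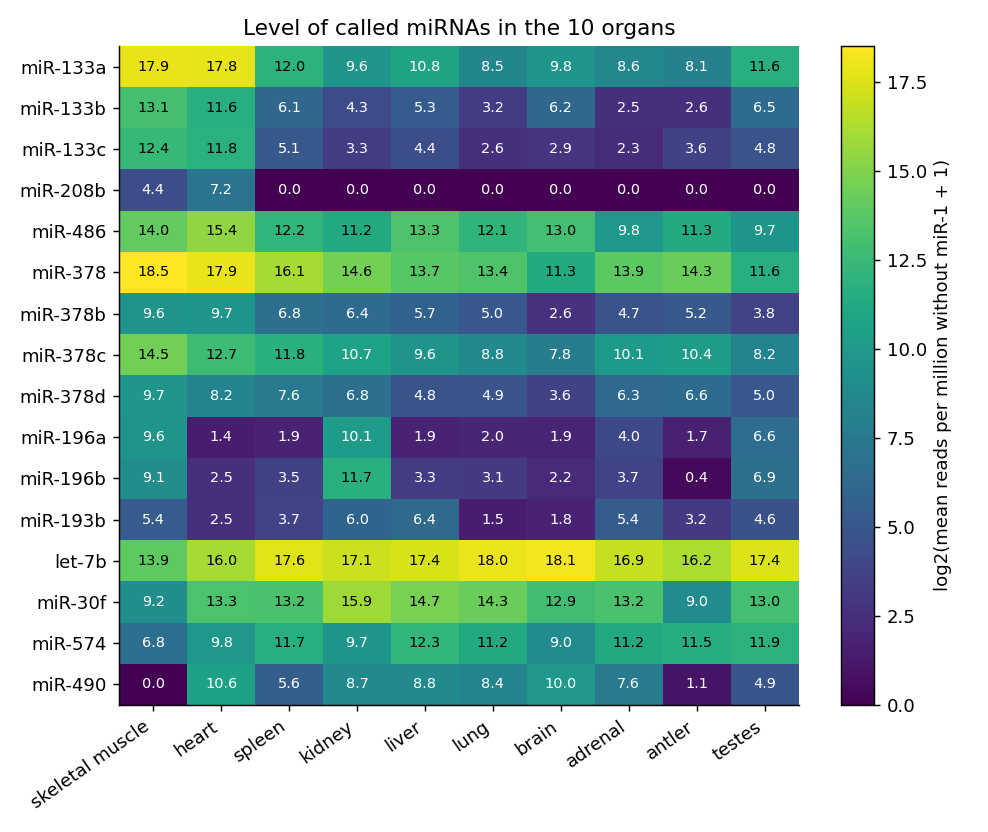
Rows are 16 miRNAs called higher (first 12) or lower (last 4) in muscle, columns are the 10 organs, and each cell gives log2 of the mean level of 4 libraries plus 1, in RPM without miR-1. The heart shares the high values of the miR-133 and miR-378 families, the kidney those of miR-196a and miR-196b, and muscle has the lowest cell of let-7b, miR-574 and miR-490.

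Among miRNAs lower in muscle, let-7b stood out by its abundance elsewhere. The let-7 family is known for its rise as tissues mature and as a restraint on growth-promoting genes. let-7b was found at 14649, 19124, 14916 and 13757 in muscle, below every one of the 36 other libraries, which ranged from 29003 to 417605 with a median of 163406. let-7b and its double miR-3596 were the only tested names below all other libraries (1.6% of those tested), as miR-133b, miR-378c and miR-378d were the only ones above all (2.4%). The difference of let-7b was -3.10 ± 0.44, or -1.96 relative to the median miRNA, and it held under all 5 scalings. Of the 7 let-7 names tested, 4 were lower (let-7a-5p, let-7b, let-7c and miR-3596) and none higher, beside 38.4% lower of all tested, and let-7b and miR-3596 count 1 signal under 2 names. The median of -1.20 was near the -1.13 of all tested, and let-7a-5p and let-7c did not hold under all scalings.

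miR-490, which lies in an intron of the muscarinic receptor gene CHRM2, had no read in any muscle library and 11891 reads in 34 of the other 36. With 3 reads over the 4 muscle libraries as the limit, it was at least 305-fold lower in muscle than the mean of the other libraries. The heart had the highest mean, 1509, and the antler the lowest, 1.09. miR-574 was found at 162, 87.1, 116 and 67.1 in muscle, and the median of the other libraries was 1860. Its difference was -3.97 ± 0.52 (adjusted p = 1.13e-07).

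miR-30f was found at 527, 786, 603 and 472. It was the only member of the miR-30 family called lower (-3.83 ± 0.44), and antler alone had a lower mean (502.6). The other 3 tested members, miR-30a-5p, miR-30b-5p and miR-30c, had differences of 0.84, 0.90 and -0.79 and were not called. miR-677 had 7, 2, 1 and 0 reads in muscle (-3.92 ± 0.53), and miR-2285l had 6, 3, 0 and 5 reads (-3.20 ± 0.61). miR-135a had 1, 2, 2 and 1 reads in muscle (-3.61 ± 0.91), with the kidney highest at a mean level of 1991, and it lost the call with DESeq2 size factors (adjusted p = 0.0125), without the miR-133 and miR-378 families in the totals (0.0255) and without the aged library (0.0116). miR-339b was found at 36.9, 103, 121 and 285 (-3.42 ± 0.43), and miR-1343-3p at 44.9, 51.4, 28.0 and 18.7 (-3.24 ± 0.56).

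miR-433 and miR-409b belong to the imprinted DLK1-DIO3 cluster, whose miRNAs are known for their activity in embryonic and neural tissue. miR-433 was found at 38.5, 20.1, 6.46 and 3.73 (-3.94 ± 0.69), and miR-409b at 1518, 442, 90.4 and 41.0 (-3.48 ± 0.53). Of the 29 cluster names in the tables, 11 had a read in muscle and 8 were tested. Of these, 4 were lower in muscle (miR-433, miR-409b, miR-431 and miR-409a) and none higher, with a median of -1.81, beside 38.4% lower and a median of -1.13 over all tested. miR-433 and miR-409b held under all 5 scalings, and miR-431 and miR-409a did not. The summed level of the cluster ranged from 95.1 to 2936 in muscle and from 385 to 95999 elsewhere.

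Markers of other cell types were then summed in each library. Such levels in bulk tissue do not separate fewer cells of a type from less RNA per cell. All 3 epithelial names in the tables (miR-200b, miR-205 and miR-429) had no read in muscle, and their median sum elsewhere was also 0 (highest 73.7). The 4 blood cell names summed to 11.2 to 29.0, against a median of 92.5 elsewhere (range 11.7 to 3100). Of these, miR-451, the red cell miRNA, had 0 reads, as did miR-142-3p, and miR-142-5p had 5, 4, 4 and 12. miR-451 and miR-142-3p were also rare elsewhere, with 8 and 43 reads over all other libraries, so their counts of 0 say little. The neural names summed to 1.87 to 25.8, around the median of 5.46 elsewhere (highest 57912), and miR-124a had 22 reads. miR-145 of smooth muscle was present at 7769 to 14647, and its difference of -1.68 was called lower on this scale. That call did not hold under all 5 scalings. miR-143, the other smooth muscle name, had only 5 reads in muscle and 154 elsewhere, and was not tested. The 7 names of the fibroblast group of miR-199 and miR-214 summed to 33782 to 50857, within the range of the other libraries (1427 to 781599, median 94179). Of 6 tested names 4 were lower and none higher, beside 38.4% lower of all tested, and none of the 4 held under all 5 scalings. miR-199a-3p and its double miR-3604 are both in these sums and among the 6 tested, so 1 signal enters under 2 names. The part of these cells in the muscle profile was not tested.

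The second comparison set muscle against heart, the other striated organ, in which the miR-133 family is also abundant. Of 125 miRNAs, 4 were higher in muscle (3.2%) and 9 lower (7.2%), and the median difference was -0.21. With miR-1 in the totals the counts were 2 and 57, while the other scalings gave 4 or 5 higher and 6 to 8 lower. By mean log2 level 66 of the 125 miRNAs were within 2-fold of muscle in the heart, more than in lung (53), antler (42) or any other organ (26 to 36). These counts include the median difference of each organ from muscle, which depends on the scaling. With that median taken out, the median absolute log2 difference was 0.92 in heart, 0.97 in lung, 1.05 in kidney and 1.48 in antler. No test was made of either order.

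Among the miRNAs higher than in the heart, miR-196a and miR-196b differed most, by 8.0 ± 0.74 and 6.99 ± 0.74, and held under all 5 scalings. miR-193b was higher by 3.41 ± 0.68 (adjusted p = 0.000336) and miR-378c by 1.90 ± 0.40 (adjusted p = 0.000719). For all 4 the muscle libraries lay above the heart libraries. In all, 8 miRNAs were above (6.4%) and 16 below (12.8%) without overlap. For miR-378c the direction turned to -0.62 with miR-1 in the totals, and the call was lost without the adult stage (adjusted p = 0.0169) and without the aged stage (0.0122). miR-193b lost its call with miR-1 in the totals (a difference of 0.58) and without the juvenile stage (adjusted p = 0.0168). miR-133a differed by 0.02 ± 0.74, miR-133b by 1.47 ± 0.70, miR-133c by 0.68 ± 0.74 and miR-378 by 0.59 ± 0.37, none of which was called.

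miR-490 led the miRNAs lower than in the heart, at least 1042-fold. miR-1343-3p (-4.04 ± 0.75), miR-30f (-3.76 ± 0.59) and miR-677 (-3.14 ± 0.71) followed and held under all 5 scalings, as did miR-208b (-2.23 ± 0.41, adjusted p = 0.000144). edgeR on the reads did not call miR-208b (adjusted p = 0.0752), nor did DESeq2 (0.810), and its call was lost without any one of the first 3 stages (0.0103 to 0.0379). miR-677 lost its call without the aged muscle library (0.0144), without the adolescent, adult or aged stage (0.0106, 0.0124 and 0.0382) and with 10 as the added constant (0.0250). miR-1343-3p lost its call without the adult stage (0.0124). miR-1296 (-3.08 ± 0.70) was also called and lost the call without the juvenile stage (adjusted p = 0.0172), the adult stage (0.0568) or the adult muscle library (0.0105). miR-574 (-2.87 ± 0.70), miR-1306 (-2.59 ± 0.55) and miR-30c (-1.95 ± 0.54, adjusted p = 0.00978) completed the 9. Without miR-133 and miR-378 in the totals, miR-1296, miR-574, miR-1306 and miR-30c all lost the call, and miR-574 lost it also with TMM and with DESeq2 size factors. miR-30c lost it without any one of the 4 muscle libraries (adjusted p = 0.0134 to 0.0322), and miR-574 without the adult (0.0105) or the aged muscle library (0.0144). Without the adult stage only 2 miRNAs were called lower. miR-486 was not called (-1.24 ± 0.44, adjusted p = 0.0465).

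**Figure D4:**
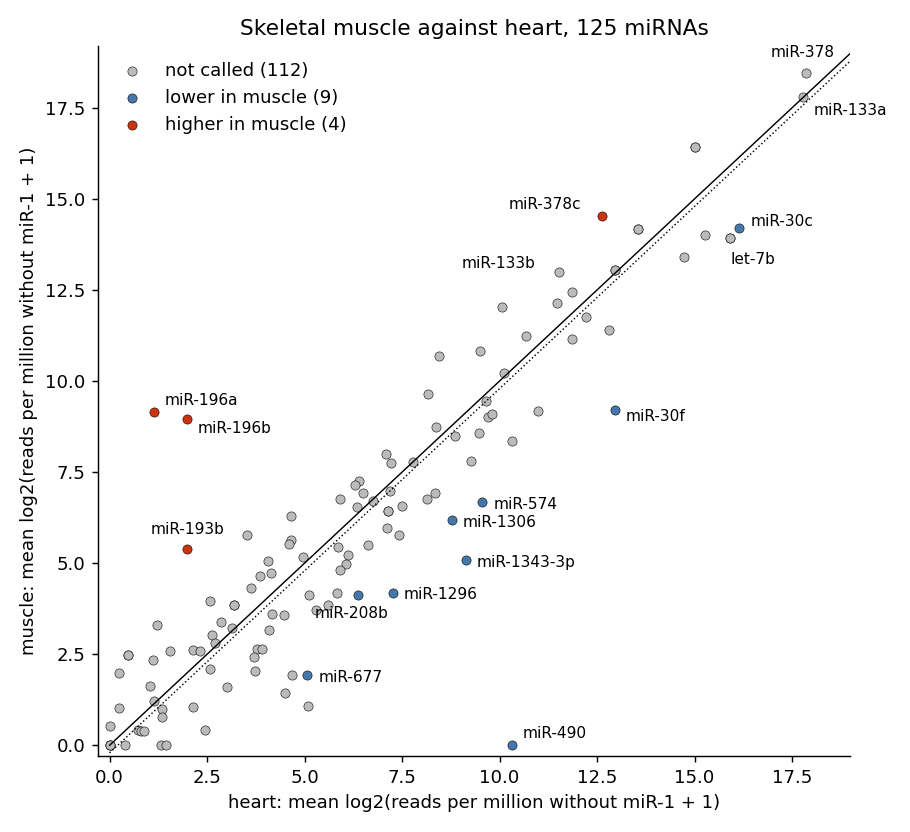
Each point is 1 of 125 miRNAs, with the mean log2 level in the 4 heart libraries (horizontal) and the 4 muscle libraries (vertical), in RPM without miR-1. The solid line marks equal levels and the dotted line the median difference of -0.21. Most points lie along the lines, miR-133a included, and miR-196a, miR-196b and miR-490 lie farthest from them.

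The course over the stages was then followed within muscle. Among 80 miRNAs with a mean of at least 10 reads, 17 were at least 2-fold higher and 5 at least 2-fold lower in adolescence than in the juvenile library, 1 and 11 in the adult than in adolescence, and 15 and 6 in the aged than in the adult. No step reached 2-fold for 48 of them (60%). These counts have no replicate behind them, since each stage is 1 library. In the heart no step reached 2-fold for 12 of 88 miRNAs, and in the liver for 56 of 90. With 1 added to each level, which draws in the folds of low miRNAs, the pair of muscle libraries least alike was juvenile and aged, with 35 of the 80 beyond 2-fold, and the pair most alike was adolescence and adult, with 10 (1 higher and 9 lower in the adult).

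A straight line over the 4 stages gave 1 called miRNA (1.25% of 80), and 18 had an unadjusted p below 0.05. This was miR-409b, which fell by 1.78 ± 0.16 per stage on the log2 scale (adjusted p = 0.00115), through the levels given above. The call was lost without the juvenile (adjusted p = 0.134), the adolescent (0.0123) or the adult library (0.0873), where the slope stayed between -1.77 and -1.70, and with miR-1 in the totals (0.0169). Without the aged library 5 miRNAs were called falling, miR-409b among them. miR-409a, from the same cluster, was found at 1236, 136, 47.4 and 46.6 and had a slope of -1.56 ± 0.30 that was not called (adjusted p = 0.0291). miR-431 had 43, 5, 0 and 1 reads, and miR-433 24, 9, 3 and 2. In 7 of the other 9 organs miR-409b also had a slope below 0, with a mean of -0.34 over the 9.

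miR-2898 had the steepest downward slope after these 2 among miRNAs with a mean of 100 reads, at 3994, 2278, 1376 and 608 (slope -0.89 ± 0.18, adjusted p = 0.0291), and was not called. With the same minimum of 100 reads, the steepest upward slopes were those of miR-339a (228, 578, 629 and 1324, slope 0.77 ± 0.18), miR-133c (0.76 ± 0.18) and miR-17-5p (197, 337, 323 and 752, slope 0.57 ± 0.17), with adjusted p of 0.0377, 0.0379 and 0.0814, so none was called. Among miRNAs with fewer reads, miR-29d-3p (1.22 ± 0.46), miR-29c (1.06 ± 0.47) and miR-339b (0.90 ± 0.15, adjusted p = 0.0291) had steeper slopes and were not called either. miR-17-5p belongs to the miR-17-92 cluster, known for its part in cell proliferation. No miRNA had a slope in muscle that differed from the mean slope of the other organs (0 of 125, 0%). By unadjusted p below 0.05 there were 9, and the smallest adjusted p was 0.156, for miR-409b.

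The balance of the leading miRNAs differed between the juvenile library and the later ones. miR-1 had 103 reads for each read of miR-133a in juvenile muscle, and 38.5, 48.1 and 33.5 at the later stages. miR-378 had 4.35 reads for each read of miR-133a in the juvenile, then 1.07, 1.26 and 1.08. In the heart this second ratio was also highest in the juvenile (1.77, then 1.10, 0.83 and 0.80). The ratio of miR-1 to miR-133a was not (6.88, 27.9, 1.71 and 0.599). In muscle the miR-378 family held 51.1% of the reads without miR-1 in the juvenile and 33.3%, 36.4% and 36.1% later. The miR-133 family held 11.7% and then 30.5%, 28.6% and 32.5%. The slopes of miR-133a (0.43 ± 0.15, adjusted p = 0.166) and miR-378 (-0.15 ± 0.10, adjusted p = 0.326) were not called.

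**Figure D5:**
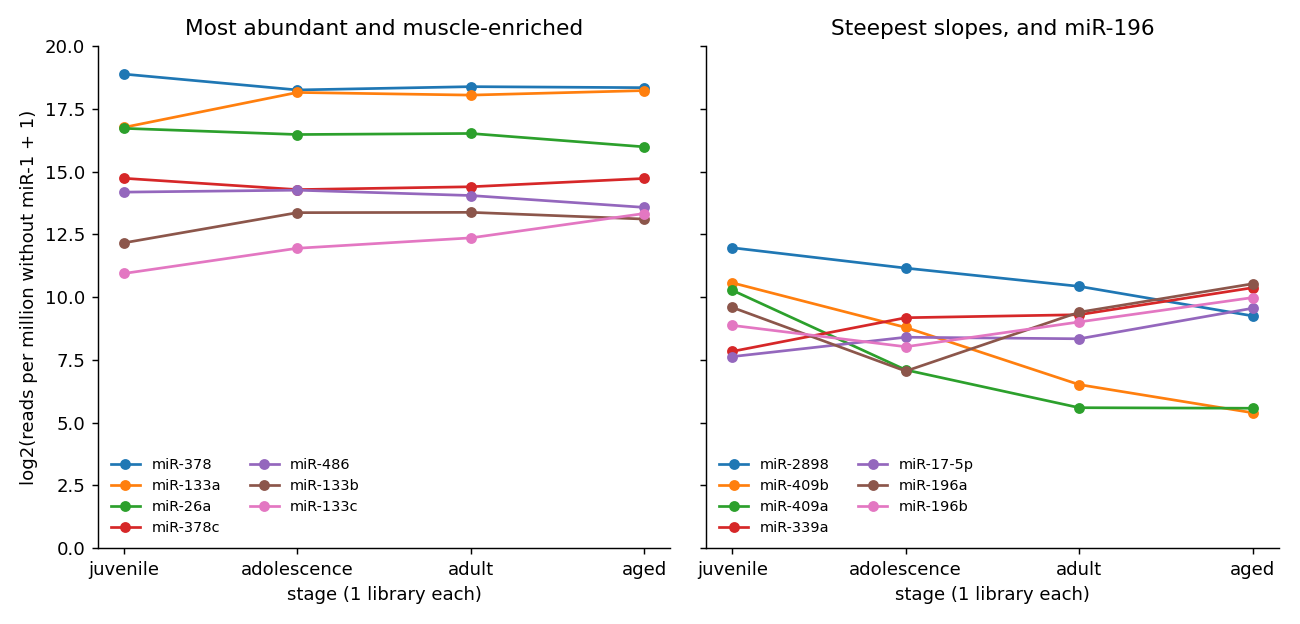
Lines join the 4 muscle libraries, 1 per stage, and give log2(level + 1) in RPM without miR-1, for the most abundant and muscle-enriched miRNAs (left) and for those with the steepest slopes at a mean of 100 reads, with miR-196a and miR-196b (right). miR-133a lies lowest in the juvenile library, miR-409b is lower at each step, from 1518 to 41.0, and miR-196a is lowest in adolescence at 132.

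Finally, the breadth of the profile was compared. At 41135 reads a library, without miR-1, muscle would show 80.4 to 86.3 names, against 79.7 to 123 (median 96.2) in the other libraries. The lung, at 79.7 to 86.7, and the heart, at 81.6 to 91.3, were similarly low. By organ mean, muscle ranked 2 from the lowest of 10 organs in names and 3 in Shannon entropy. The exact permutation test within stages gave p = 0.0237, and 0.0711 after adjustment over the 3 breadth measures. The 5 leading names held 79.4% to 83.6% of the reads in muscle, against a median of 74.8% elsewhere (adjusted exact p = 0.1045), and the Shannon entropy was 2.83 to 3.09 bits against a median of 3.38 (adjusted exact p = 0.1045). With the 7 doubled names merged, all 3 measures passed 0.05 (adjusted exact p = 0.0048, 0.0237 and 0.0272). With miR-1 kept, muscle would show 43.0 to 48.1 names and an entropy of 0.587 to 0.705 bits. Both follow from the share of miR-1, so the same permutation test (adjusted exact p = 0.0001) only restates that share.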

How the data were processed

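Small RNA was sequenced in 40 pooled libraries. According to the study's methods and the labels, RNA was extracted with TRIzol, sequenced on Illumina instruments, and known miRNAs were matched to bovine names, with Bowtie, CASAVA and bcl2fastq 1.8.4 in the submitters' processing notes. The authors deposited RPM values (reads scaled to 1000000) for each library. All 7982 listed values were within 0.01 of whole reads after division by the RPM of 1 read, so reads were recovered. Known names were rescaled to the total without miR-1 (miR-148c of antler counted as miR-2957). limma 3.58.1 was fitted to log2(level + 1) with organ and stage terms for names with 10 reads in 4 libraries; miR-1 was described by its share. edgeR 4.0.16 and DESeq2 1.42.0 on the recovered reads were alternatives. Calls needed an adjusted p below 0.01 and, for organs, a log2 difference beyond 1. Same-stage organs come from the same 3 deer, so stage was a block (median correlation of same-stage deviations of muscle and the other organs 0.34, -0.03, 0.06 and 0.12 from juvenile to aged). Named miRNAs were the myomiR and miR-378 lists, the 10 highest in muscle, the 10 largest called differences in each direction (5 against heart) and the 3 steepest slopes each way. The members and lists were chosen with earlier results of these data known. On simulated reads the fit recovered 17 of 20 miRNAs changed 4-fold, with 1 false call among the 124 simulated. The slope-difference fit recovered 23 of 40 whose muscle level changed 2-fold per stage, with 0 false calls among 123. The simulated libraries were independent, with a fixed spread that was not estimated from these data and was smaller for slopes. These counts therefore do not give the recovery to expect in the real libraries. Numbered miRNAs were not compared. Each library is 1 pool at 1 stage. The p-values of the organ fits measure the spread left between such libraries after the organ and stage terms, which mixes differences between pools with changes over stages within an organ. For the slopes within muscle the spread is the scatter of the 4 libraries about a straight line.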

Additional observations from a re-analysis of the deposited data

Results flagged for a closer look

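In 34 series of 4 muscle values, 1 library stood apart from the other 3 in 2 (Dixon's test of the gap to the nearest value), and chance alone flags about 1 in 20. Both were the juvenile library. miR-378d was at 1091 RPM without miR-1, against 708 to 765 at the other stages, and miR-409a was at 1236, against 46.6 to 136. The numbered miRNAs, which no comparison above used, had 1368 reads in the 4 muscle libraries (173 to 581 each), more than the 3 reads that a count of 0 allows, and 793 of them belonged to 1 name. Of 60 numbered names with a muscle read, 12 had reads in all 4 libraries.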

How the results depend on the processing

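The counts of miRNAs that differ from the other organs (12 higher, 48 lower) moved most with the scaling, to 6 and 103 with miR-1 in the totals, 21 and 24 with TMM, 23 and 16 with DESeq2 size factors, 27 and 17 without the miR-133 and miR-378 families, and 26 and 16 with DESeq2 on the reads. Leaving out 1 library or stage gave 11 to 12 higher and 29 to 49 lower, the fewest without the adult or the aged stage. Leaving out each other organ in turn, chosen after seeing the data, gave 11 to 14 higher and 41 to 51 lower. Against the heart (4 higher, 9 lower) the counts were 2 and 57 with miR-1 in the totals, and DESeq2 on the reads called 13 higher. Without 1 library or stage there were 3 to 4 higher and 2 to 10 lower, with 5 lower without the juvenile stage. With miR-1 in the totals miR-486 (-1.40) and miR-193b (-1.51) reversed against the other organs, and miR-378c (-0.62) against the heart. Slopes called rising and falling numbered 0 and 1, then 1 and 6 with TMM, 1 and 3 with DESeq2 size factors, 3 and 7 with no minimum of reads, 0 and 0 with miR-1 in the totals, and 0 to 5 falling without 1 library. Breadth without miR-1 differed by -11.2 names, -0.43 bits and 8.38 percentage points, and passed 0.05 with doubled names merged (-14.5, -0.59 and 9.36). With miR-1 kept the differences (-48.9, -2.71 and 24.8) restate its share. The cause of these changes was not tested.

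Samples of 1 stage are paired through their deer, and the fit without the replicate block gave 12 higher and 45 lower than the other organs, 4 and 9 against the heart and 0 slope differences, which changed none of these counts by more than 1.5 times. The slope difference gave 0 calls under every alternative run. A name with 10 reads in a muscle library lies at a level of about 16 to 22.3, so miRNAs such as miR-206, miR-208b and miR-193b rest on few reads.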
